A study of Mus musculus with 13 samples.

Results

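Translation initiation and elongation factors were followed in S1 segments of the mouse proximal tubule through endotoxin challenge, with and without a prior small dose. Members were all genes with a single symbol starting with Eif or Eef and a digit, without the eIF2 alpha kinases (Eif2ak) and pseudogenes, each read by its brightest probe set (highest mean across the 13 arrays). The rule gave 59 of the 22180 genes tested, of which 46 were initiation factors by name (Eif) and 13 were elongation factors or their modifiers by name (Eef). It used symbols and mean brightness and not the difference of a gene between groups, but it was set with earlier results of these data known.

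The proximal tubule reclaims filtered solutes and proteins, and S1 is its earliest segment. All mice were male C57BL/6J animals with no transgene or deletion named in the labels. The LPS/LPS group (5 arrays) received 0.25 mg/kg of lipopolysaccharide (LPS, bacterial endotoxin) and, 24 h later, 5 mg/kg, a schedule called preconditioning. The LPS group (4 arrays) received only the 5 mg/kg dose, by intraperitoneal injection, with tissue taken 24 h later. The control group (4 arrays) received saline. Separate animals for the arrays are not stated in the labels, so the p-values reflect sample-to-sample spread alone, which may be technical. Precision is limited by the small number of arrays.

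Initiation factors bring the initiator tRNA, the small ribosomal subunit and a capped mRNA together: eIF2 delivers the tRNA and is recharged by eIF2B, eIF4E binds the cap, eIF4G bridges, eIF4A unwinds the leader with its helpers, eIF3 holds the complex, and eIF5, eIF5B and eIF6 govern joining of the large subunit. Elongation factors then drive the ribosome along the message: eEF1A carries aminoacyl-tRNA, the eEF1B complex recharges eEF1A, and eEF2 moves the ribosome on by a codon. In many cells eIF2 alpha kinases and mTOR signalling slow these steps under stress, and mRNAs of several elongation factors belong to a class whose own translation depends on mTOR.

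The arrays were Affymetrix whole-transcript arrays, and values are log2 expression as deposited. Array medians ran from 3.68 to 3.81, and the standard deviation (SD) of an array's log2 values from 1.28 to 1.42. Slc34a1, the phosphate transporter of the proximal tubule, averaged 10.09, above 99.9% of genes, while Slc5a2, the glucose transporter of S1, averaged 4.27. A background level of 4.77, the 95th percentile of the means of 1105 olfactory receptor genes, stood in for detection calls. By it 5 of 14 S1 and S2 markers were above background, as were 1 of 9 markers of other nephron segments (Umod), 1 of 5 of fibroblasts and mural cells (Acta2), 0 of 5 endothelial, 0 of 10 leukocyte and 0 of 4 podocyte markers. LPS replicate 3 stood apart: its mean over the 9 other-segment markers was 5.52, against 3.76 to 4.14 in the other 12 arrays. The larger values that it moves by more than 1.5 times are also given without it.

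Most translation factors gave weak signals. Mean levels above background were found for only 9 of the 59 members, 5 of the initiation and 4 of the elongation genes. These were Eif4a1, Eef1a1, Eef2, Eef1g, Eif4h, Eif4ebp2, Eif4g2, Eif6 and Eef1a2, with means from 4.78 (Eef1a2) to 7.85 (Eif4a1). The median of all members was 3.92 and the lowest was 1.75 (Eif3e). A dim probe set compresses a real change toward 0, so differences of members below background have to be read with that limit.

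The differences in brief were as follows. After the repeated dose, the transcripts of eEF1A1 and eEF2 averaged 0.149 and 0.214 of their level after a single dose, and most other factors stood a little lower too. Lower values also occurred outside these factors: of all 2207 genes above background, 267 were lower and 83 higher there at an unadjusted p under 0.05. Of the 9 members above background, 6 were lower and 0 higher, although Eif6 among them passed that level only through its LPS arrays. After a single dose most factors stood slightly higher than in control segments, led by Eif6 with a log2 difference of 1.18, although all control arrays of Eif6 lay below the background level. None of the 59 members passed limma's adjusted threshold of 0.05 in any of the 3 comparisons, so all of this is described as values and not as changes.

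**Figure D1:**
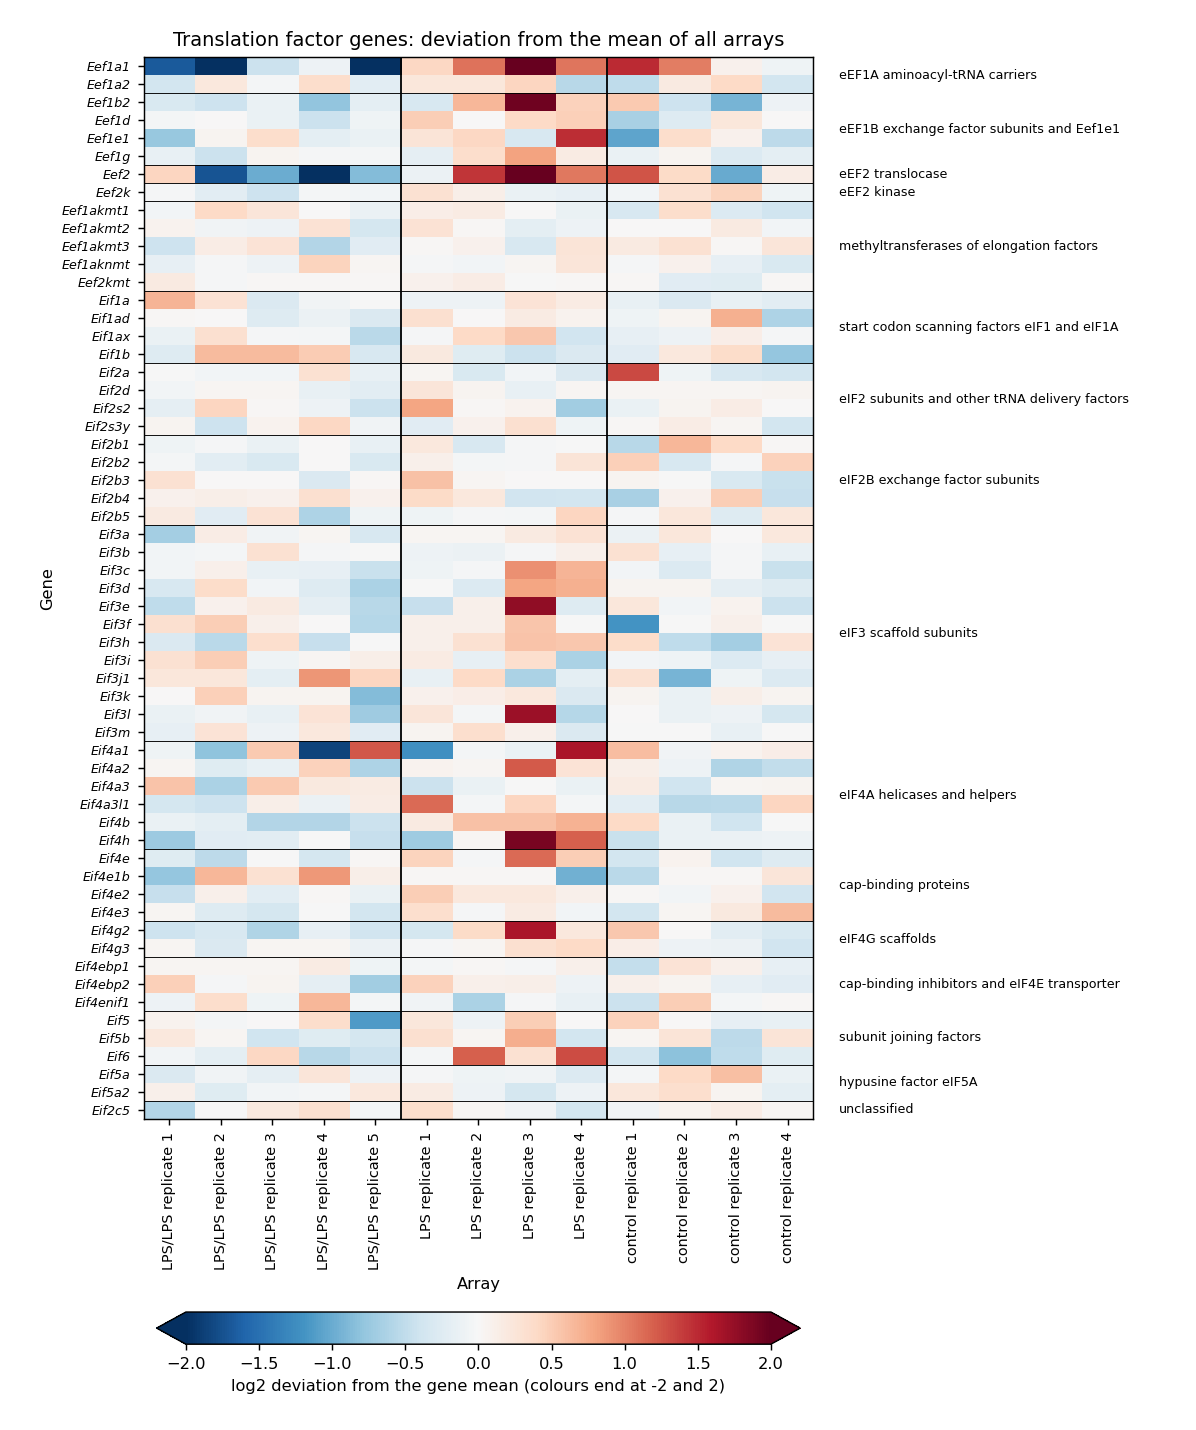
Deviation of each of the 59 members from its own mean over 13 arrays (log2, colours end at ±2), with columns grouped as LPS/LPS, LPS and control. Eef1a1 and Eef2 carry the darkest low values, in LPS/LPS arrays, and LPS replicate 3 holds the highest value of 18 members.

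In LPS arrays against control arrays, 0 of 59 members passed the adjusted threshold, beside 0% of all genes. At an unadjusted p under 0.05 there were 9 members (15.3%), all of them higher, beside 3.49% of all genes higher and 2.95% lower. Differences were above 0 for 43 members (47.1% of all genes) and below it for 16, and the median difference was 0.15, against -0.02 over all genes. Arrays did not overlap for 3 members, all higher in LPS (1.55% of all genes did so): Eif6, Eif4e2 and Eif1a. Without LPS replicate 3 the count at an unadjusted p under 0.05 was 5 and the median 0.07.

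LPS/LPS arrays against control arrays gave 0 members past the adjusted threshold (0.00902% of all genes) and 2 at an unadjusted p under 0.05, Eef1a1 and Eef2, both lower (3.39%, beside 2.07% of all genes lower and 2.62% higher). Differences were above 0 for 27 members (55.8% of all genes) and below it for 32, with a median of -0.04 against 0.03 over all genes. Eef1a1 alone did not overlap between these groups, as did 0.699% of all genes in the lower direction. Of the 2207 genes above background, 134 were lower and 61 higher at an unadjusted p under 0.05, and the 5th percentile of their differences was -0.85.

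LPS/LPS arrays against LPS arrays also gave 0 members past the adjusted threshold (0.0631% of all genes). At an unadjusted p under 0.05 there were 13 (22.0%), all of them lower, beside 4.49% of all genes lower and 4.13% higher. Differences were above 0 for 14 members (59.3% of all genes) and below it for 45, and the median was -0.18, against 0.05 over all genes. Eef1a1 and Eif4b did not overlap, both lower in LPS/LPS, as did 1.3% of all genes in that direction and 1.1% in the higher one. Of the 2207 genes above background, 267 were lower and 83 higher at an unadjusted p under 0.05. In 80 of them all LPS/LPS arrays lay below all LPS arrays, and in 17 above. The 5th percentile of their differences was -1.09, against -0.48 over all genes. The comparison shares its LPS arrays with LPS vs control and its LPS/LPS arrays with LPS/LPS vs control, so the same arrays enter more than 1 of these counts. Without LPS replicate 3 the count at an unadjusted p under 0.05 was 9 and the median -0.18. In bulk samples, fewer cells of a type and less RNA per cell cannot be told apart, and the S1 and S2 marker mean itself ran from 4.24 to 4.95 in LPS/LPS, from 4.31 to 5.67 in LPS and from 4.87 to 5.48 in control arrays. Its part in these results was not tested.

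**Figure D2:**
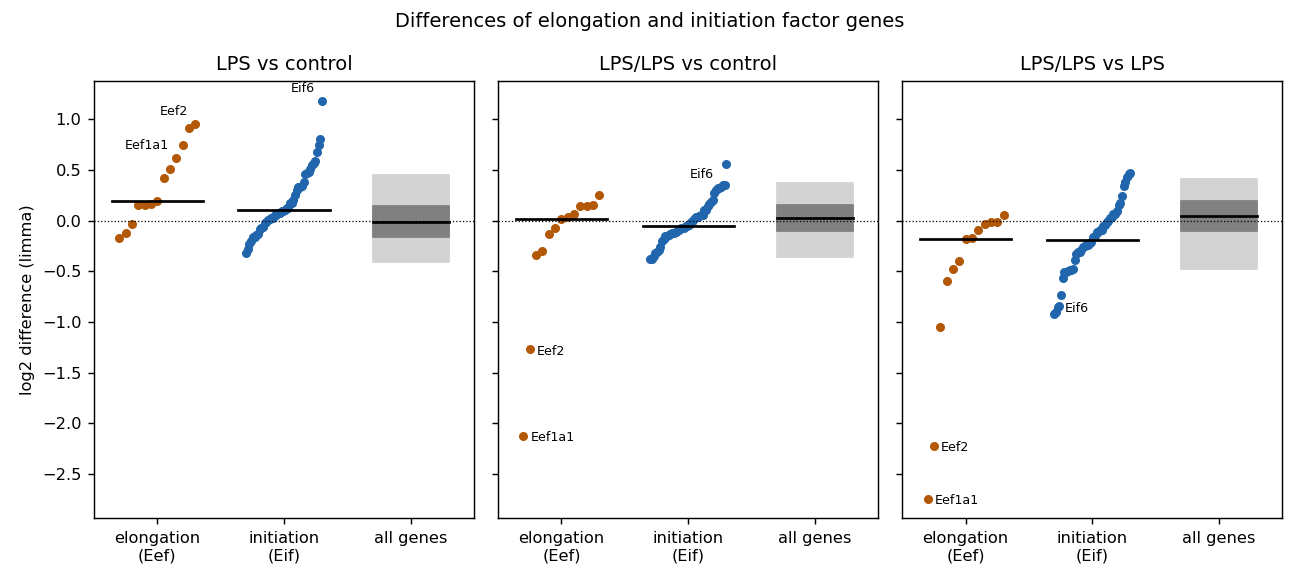
Fitted log2 differences of the 13 elongation members and 46 initiation members in each comparison (points in rising order, with a line at the median), beside the 25th to 75th (grey) and 5th to 95th (light grey) percentiles of all 22180 genes. Eef1a1 and Eef2 lie far below the other members in LPS/LPS vs LPS, at -2.74 and -2.22, and Eif6 is the highest in LPS vs control, at 1.18.

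The eEF1A carriers came first among the elongation factors. Eef1a1, the ubiquitous form of eEF1A, read 5.34, 3.96, 6.59, 6.93 and 4.82 in the LPS/LPS arrays. It read 7.45, 8.11, 9.42 and 8.10 in the LPS arrays, and 8.52, 8.04, 7.11 and 6.94 in the control arrays. Every LPS/LPS array lay below every array of both other groups, although the highest LPS/LPS array (6.93) all but met the lowest control array (6.94). The LPS/LPS mean was 5.53 ± 1.23 (SD, n = 5), against 8.27 ± 0.83 in LPS (SD, n = 4) and 7.65 ± 0.75 in control (SD, n = 4).

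For Eef1a1, LPS/LPS differed from LPS by -2.74 (SE 0.57, limma adjusted p = 0.122) and from control by -2.13 (SE 0.57, limma adjusted p = 0.921), while LPS differed from control by 0.62 (SE 0.60, limma adjusted p = 0.882), or 0.23 without LPS replicate 3 and 0.38 without control replicate 4. Over the alternative settings the adjusted p of LPS/LPS vs LPS ran from 0.0530 to 0.402, and that difference without LPS replicate 3 was -2.36. A second, dimmer Eef1a1 probe set (mean 3.36) differed by -0.68 (SE 0.27, adjusted p = 0.665 in the fit of all probe sets) in LPS/LPS vs LPS and by -0.27 in LPS/LPS vs control. Its LPS/LPS and LPS arrays overlapped. Eef1a1 has many near-identical copies in the genome, and other probe sets of the annotation pair it with predicted genes, so the signal is uncertain as to the copy. Eef1a2, the form known from muscle and neurons, averaged 4.77 ± 0.30, 4.86 ± 0.43 and 4.71 ± 0.43 in LPS/LPS, LPS and control arrays and overlapped in every comparison.

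Eef2, the translocase, read 6.76, 4.60, 5.33, 4.10 and 5.45 in the LPS/LPS arrays. It read 6.20, 7.76, 8.55 and 7.38 in the LPS arrays and 7.58, 6.71, 5.32 and 6.47 in the control arrays. LPS/LPS replicate 1 lay above LPS replicate 1, and the other 4 LPS/LPS arrays lay below all LPS arrays. LPS/LPS differed from LPS by -2.22 (SE 0.56, limma adjusted p = 0.234, range 0.0686 to 0.588 over the alternatives) and from control by -1.27 (SE 0.56, limma adjusted p = 0.987), and LPS from control by 0.96 (SE 0.59, limma adjusted p = 0.805). The first of these was -1.87 and the last 0.60 without LPS replicate 3, and without control replicate 3 the last was 0.56. Eef2k, the kinase that inhibits eEF2, averaged 4.02 ± 0.16 in LPS/LPS, 4.20 ± 0.22 in LPS and 4.33 ± 0.26 in control arrays, with differences no larger than 0.30 in size.

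Arrays also differed in the width of their values, so the comparison was repeated within the 7 wide arrays (2 LPS/LPS, 3 LPS, 2 control) and the 6 narrow ones (3 LPS/LPS, 1 LPS, 2 control), parted at the median SD. For Eef1a1, LPS/LPS minus LPS was -3.47 in wide and -1.62 in narrow arrays, and LPS/LPS minus control was -2.65 in wide and -1.75 in narrow arrays. For Eef2 the same differences were -1.79 and -1.52, and -0.92 and -1.34. Both genes thus stood lower in LPS/LPS within either class, although the narrow class held a single LPS array. LPS minus control differed in sign between the classes for Eef1a1, at 0.82 in wide and -0.13 in narrow arrays.

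**Figure D3:**
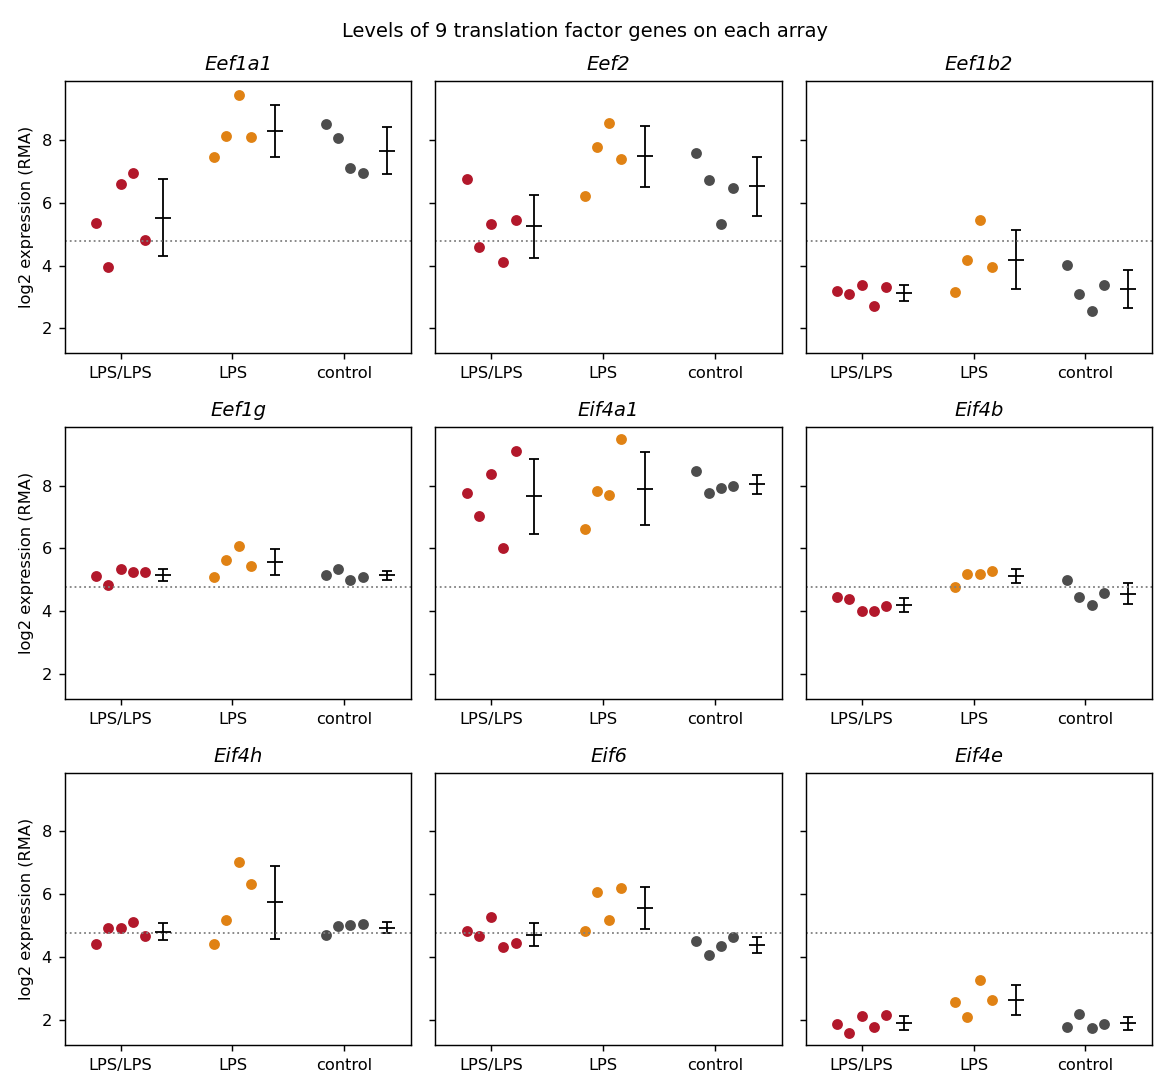
Log2 expression of 9 members in every array (points), by group from LPS/LPS to LPS to control, with the mean and SD (bars) and the background level of 4.77 (dotted line). Eef1a1 in LPS/LPS lies below both other groups in all arrays, Eif4b in LPS/LPS lies below all LPS arrays, and Eif6 in LPS lies above all control arrays.

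The eEF1B complex returns eEF1A to its GTP-bound form. Its subunit gene Eef1b2 read 3.19, 3.09, 3.37, 2.72 and 3.30 in LPS/LPS arrays, 3.17, 4.17, 5.44 and 3.95 in LPS arrays, and 4.02, 3.08, 2.56 and 3.39 in control arrays. LPS/LPS differed from LPS by -1.05 (SE 0.37, limma adjusted p = 0.449), and LPS from control by 0.92 (SE 0.39, limma adjusted p = 0.725). Much of this lay in LPS replicate 3: without it the values were -0.63 and 0.50. Within classes, LPS/LPS minus LPS was -1.27 in wide and -0.11 in narrow arrays.

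Eef1g, the gamma subunit, averaged 5.17 ± 0.19 in LPS/LPS, 5.57 ± 0.41 in LPS and 5.15 ± 0.14 in control arrays. Eef1d, the delta subunit, averaged 4.55 ± 0.17, 5.04 ± 0.23 and 4.52 ± 0.37 in the same order. In both, LPS/LPS stood below LPS (-0.40 and -0.48) and within 0.03 of control, and no adjusted p was under 0.461. Eef1g differed by -0.23 in LPS/LPS vs LPS and by 0.25 in LPS vs control (0.42 with it) once LPS replicate 3 was left out, and Eef1d by -0.46 and 0.49. Eef1e1, which belongs to the aminoacyl-tRNA synthetase complex despite its name, averaged 3.48 ± 0.41, 4.08 ± 0.75 and 3.33 ± 0.63 and overlapped in all comparisons. All 4 genes of this set were higher in LPS than in control (median 0.63) and lower in LPS/LPS than in LPS (median -0.54), while LPS/LPS and control differed by a median of 0.02. The first medians were 0.50 and -0.55 without LPS replicate 3, with the same signs in all 4 genes. Within narrow arrays, with a single LPS array, Eef1g turned, to -0.07 in LPS vs control and 0.05 in LPS/LPS vs LPS. The others kept their signs there, with Eef1e1 at 0.05 in LPS vs control, against 1.32 in wide arrays.

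The 5 methyltransferases that modify elongation factors (Eef1akmt1, Eef1akmt2, Eef1akmt3, Eef1aknmt and Eef2kmt) stayed close to 0. Their differences in LPS/LPS vs LPS lay between -0.17 and 0.05. Eef1akmt3, a lysine methyltransferase of eEF1A, was the most negative of them in LPS/LPS vs control, at -0.34 (3.68 ± 0.36 in LPS/LPS against 4.02 ± 0.12 in control arrays), with overlapping arrays.

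Promoter sequences are shown for the members with the most negative differences between LPS/LPS and LPS, so that shared letters can be looked for. Of these 6, Eef1a1, Eef2, Eef1b2, Eif4h and Eif4b had an entry in the RefSeq promoter table (mouse build GRCm38.p6), as did 45 of the 59 members. The other was Eif6. Each window runs 5′ to 3′ on the gene's strand, from 170 bases before the annotated start through the first 30 bases from it, in lower case with any of the motifs searched in capitals.
Eef1a1, chr9:78481695-78481894, minus strand: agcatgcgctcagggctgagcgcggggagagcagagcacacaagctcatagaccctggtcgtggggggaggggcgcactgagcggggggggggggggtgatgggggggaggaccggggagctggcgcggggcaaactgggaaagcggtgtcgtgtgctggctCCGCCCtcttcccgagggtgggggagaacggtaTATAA
Eef2, chr10:81176461-81176660, plus strand: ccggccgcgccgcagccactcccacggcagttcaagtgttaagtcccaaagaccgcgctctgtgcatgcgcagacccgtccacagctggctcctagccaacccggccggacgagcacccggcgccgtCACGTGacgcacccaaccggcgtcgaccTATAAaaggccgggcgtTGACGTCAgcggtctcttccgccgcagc
Eef1b2, chr1:63176661-63176860, plus strand: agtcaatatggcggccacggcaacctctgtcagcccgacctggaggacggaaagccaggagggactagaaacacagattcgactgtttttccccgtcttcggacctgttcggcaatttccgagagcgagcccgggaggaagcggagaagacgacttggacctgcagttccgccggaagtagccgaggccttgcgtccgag
Eif4h, chr5:134639380-134639579, minus strand: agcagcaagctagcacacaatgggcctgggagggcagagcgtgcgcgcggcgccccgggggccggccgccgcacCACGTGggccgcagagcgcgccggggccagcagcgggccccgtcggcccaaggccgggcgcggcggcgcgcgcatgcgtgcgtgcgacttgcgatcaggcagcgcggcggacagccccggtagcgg
Eif4b, chr15:102073603-102073802, plus strand: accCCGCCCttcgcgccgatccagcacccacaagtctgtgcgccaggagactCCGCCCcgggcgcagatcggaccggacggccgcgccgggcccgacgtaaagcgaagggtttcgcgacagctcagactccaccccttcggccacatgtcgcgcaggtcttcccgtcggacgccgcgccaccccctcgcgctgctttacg

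The motifs searched on both strands were the TATA box core (letters TATAA), the CAAT box (letters CCAAT), the GC box (letters GGGCGG), the E-box (letters CACGTG) and the cAMP response element (letters TGACGTCA), none of which is contained in another. The Eef1a1 window held the letters of a TATA box and a GC box. In the Eef2 window were those of a TATA box, an E-box and a cAMP response element. The Eif4h window held those of an E-box, and the Eif4b window those of a GC box at 2 places. The TATAA of Eef1a1 and the TGACGTCA of Eef2 lay within the 30 bases from the annotated start, not before it. The Eef1b2 window held none of these letters. Of all 32851 windows of this length, 17.3% held the TATA box letters, 29.0% the CAAT box, 32.0% the GC box, 5.47% the E-box and 1.62% the cAMP response element. Of the 59 windows of the matched members the shares were 6.78%, 22.0%, 61.0%, 18.6% and 1.69%. Member windows had a median GC content of 65.5%, against 54% over all windows, which bears on how often GC-rich letters occur. A match is a description of the sequence and shows no binding.

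The initiation factors begin here with the eIF4A helicases and their helpers. Eif4b, whose product helps eIF4A unwind mRNA leaders, read 4.47, 4.41, 4.01, 4.01 and 4.16 in LPS/LPS arrays. It read 4.78, 5.19, 5.18 and 5.29 in LPS arrays and 5.00, 4.47, 4.20 and 4.60 in control arrays. All LPS/LPS arrays lay below all LPS arrays, and control arrays overlapped both groups. LPS/LPS differed from LPS by -0.90 (SE 0.17, limma adjusted p = 0.0919), the lowest adjusted p of any member.

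Over the alternative settings that p for Eif4b ran from 0.0344 to 0.395, and it passed the threshold under array weights (0.0488) and without LPS replicate 1 (0.0344). The Eif4b difference was -0.88 without LPS replicate 3. It was -0.90 within wide and -0.64 within narrow arrays. LPS differed from control by 0.55 (SE 0.18, limma adjusted p = 0.624) and LPS/LPS from control by -0.35 (SE 0.17, limma adjusted p = 0.987).

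Eif4h, another helper of eIF4A, read 4.41, 4.92, 4.93, 5.13 and 4.68 in LPS/LPS arrays, 4.43, 5.18, 7.03 and 6.33 in LPS arrays, and 4.70, 5.00, 5.03 and 5.04 in control arrays. The LPS group held both the highest arrays and one of the lowest. LPS/LPS differed from LPS by -0.93 (SE 0.39, limma adjusted p = 0.526) and LPS from control by 0.80 (SE 0.41, limma adjusted p = 0.774). These were -0.50 and 0.37 without LPS replicate 3, and within narrow arrays the signs turned, to 0.56 and -0.58.

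Eif4a1, the helicase itself and the brightest member, spread widely within groups: 7.76, 7.04, 8.38, 6.01 and 9.10 in LPS/LPS arrays, 6.63, 7.82, 7.71 and 9.48 in LPS arrays, and 8.47, 7.78, 7.92 and 7.98 in control arrays. Its differences, -0.25 in LPS/LPS vs LPS (SE 0.58, limma adjusted p = 0.933), -0.38 in LPS/LPS vs control and -0.13 in LPS vs control (-0.06 without LPS replicate 3), were within that spread, and each turned positive under some setting. A second Eif4a1 probe set of mean 3.24 differed by -0.85 in LPS/LPS vs LPS (SE 0.25, adjusted p = 0.526 in the fit of all probe sets). Eif4a3, the helicase of the exon junction complex, differed by 0.34 in LPS/LPS vs LPS and by 0.20 in LPS/LPS vs control. It and Eif4a3l1 are close copies, so their signals are uncertain as to the member.

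At the cap, Eif4e, the cap-binding protein, read 1.89, 1.60, 2.12, 1.78 and 2.16 in LPS/LPS arrays, 2.58, 2.11, 3.26 and 2.62 in LPS arrays, and 1.77, 2.19, 1.74 and 1.88 in control arrays. All 13 values lay far below the background level. LPS/LPS differed from LPS by -0.73 (SE 0.20, limma adjusted p = 0.317), LPS from control by 0.75 (SE 0.22, limma adjusted p = 0.53) and LPS/LPS from control by 0.01. Without LPS replicate 3 the first pair were -0.53 and 0.54.

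Eif4e2, a cap-binding relative known for repressing translation, read 3.92, 3.65, 3.64 and 3.54 in LPS arrays, all above the 3.46, 3.39, 3.52 and 3.06 of control arrays. That difference was 0.33 (SE 0.15, limma adjusted p = 0.768), and LPS/LPS differed from LPS by -0.39 (SE 0.15, limma adjusted p = 0.472). Eif4e1b, known from oocytes, was the most positive member in LPS/LPS vs LPS, at 0.46 (3.00 ± 0.64 against 2.53 ± 0.49), with overlapping arrays. LPS replicate 4 read 1.80 and the other LPS arrays all read 2.78, so the LPS spread comes from that array alone, below the background level. Without LPS replicate 4 the difference was 0.22 and 5 members stood higher.

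The inhibitors of cap binding showed little. Eif4ebp1, which sequesters eIF4E when mTOR is inactive, averaged 4.20 ± 0.09 in LPS/LPS, 4.17 ± 0.06 in LPS and 4.09 ± 0.33 in control arrays. Eif4ebp2 averaged 4.97 ± 0.43, 5.19 ± 0.23 and 4.98 ± 0.16. Eif4enif1, which shuttles eIF4E into the nucleus, averaged 3.47 ± 0.34, 3.09 ± 0.28 and 3.33 ± 0.38. The eIF4G relative Eif4g2, which supports cap-independent initiation, read 4.49, 4.58, 4.30, 4.73 and 4.52 in LPS/LPS arrays, 4.56, 5.28, 6.53 and 5.12 in LPS arrays, and 5.43, 4.91, 4.69 and 4.60 in control arrays. It differed by -0.85 in LPS/LPS vs LPS (SE 0.30, limma adjusted p = 0.454), and by -0.46 without LPS replicate 3, its highest array.

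Eif6, which keeps the large subunit from joining too early and also acts in its assembly, gave the largest difference of the 59 members in LPS vs control. It read 4.82, 4.69, 5.29, 4.33 and 4.46 in LPS/LPS arrays. It read 4.84, 6.08, 5.18 and 6.18 in LPS arrays and 4.51, 4.06, 4.37 and 4.63 in control arrays. All LPS arrays lay above all control arrays, and LPS/LPS arrays overlapped both groups.

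For Eif6, LPS differed from control by 1.18 (SE 0.29, limma adjusted p = 0.345), LPS/LPS from LPS by -0.85 (SE 0.27, limma adjusted p = 0.404), and LPS/LPS from control by 0.33 (SE 0.27, limma adjusted p = 0.987). The adjusted p of LPS vs control ran from 0.0837 to 0.742 over the alternatives. Without LPS replicate 3 the difference from control was 1.31. It was 1.25 in wide and 0.63 in narrow arrays. LPS/LPS minus LPS was -1.17 in wide and -0.07 in narrow arrays, the narrow class holding a single LPS array. The other subunit joining factors, Eif5 and Eif5b, were lower in LPS/LPS than in LPS by 0.31 and 0.33 on the log2 scale, with no adjusted p under the threshold. LPS replicate 3 was the highest array of both (4.20 and 4.49), so these differences were smaller in size without it. Their differences in LPS vs control, 0.12 and 0.17, were 0.01 and -0.01 without it.

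The eIF3 scaffold was represented by 12 subunit genes. At an unadjusted p under 0.05, 1 was higher in LPS vs control (3.49% of all genes) and 2 were lower in LPS/LPS vs LPS (4.49% of all genes). In LPS vs control 11 of 12 differences were above 0 (47.1% of all genes, median 0.22), and in LPS/LPS vs LPS 3 of 12 were (59.3% of all genes, median -0.21). These were 8 of 12 (median 0.06) and 5 of 12 (median -0.03) without LPS replicate 3. Its members did not all go the same way. Eif3j1, a loosely bound subunit that acts near the decoding site, was the most positive member in LPS/LPS vs control, at 0.56 (SE 0.27, limma adjusted p = 0.987), or 0.33 without control replicate 2. It averaged 4.38 ± 0.39 in LPS/LPS, 3.93 ± 0.42 in LPS and 3.82 ± 0.52 in control arrays. Eif3i, a peripheral subunit, differed by 0.32 from control and by 0.25 from LPS in the LPS/LPS group, the last being 0.06 without LPS replicate 4 and 0.38 without LPS replicate 3. Eif3f differed by 0.35 and -0.11, and its value against control was 0.04 without control replicate 1. The -0.11 did not hold without LPS replicate 3, the highest array for Eif3f at 4.70.

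Start codon selection and tRNA delivery follow. Eif1a, which promotes scanning, read 4.66, 4.66, 5.03 and 4.92 in LPS arrays against 4.61, 4.48, 4.62 and 4.55 in control arrays, a difference of 0.25 (SE 0.18, limma adjusted p = 0.839) with no overlap. In LPS/LPS it averaged 4.88 ± 0.37. Eif1b, a form of the start codon gatekeeper eIF1, differed by 0.43 in LPS/LPS vs LPS and 0.35 in LPS/LPS vs control, with overlapping arrays, and the value against control was 0.13 without control replicate 4. The 4 genes for eIF2 subunits and other tRNA delivery factors had median differences of -0.06 in LPS/LPS vs LPS, -0.09 in LPS/LPS vs control and 0.02 in LPS vs control. The 5 eIF2B subunit genes, whose complex is the target of the integrated stress response, had medians of -0.16, -0.14 and 0.03. Eif2a, a factor that can deliver initiator tRNA apart from eIF2, differed by -0.28 in LPS vs control, where 1 control array read 5.24 and the other 3 read 3.83, 3.59 and 3.55. The probe sets of Eif2s1 and Eif4g1 were not analysed here.

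Eif5a, whose product carries hypusine and helps ribosomes past difficult stretches, averaged 4.46 ± 0.20 in LPS/LPS, 4.43 ± 0.11 in LPS and 4.75 ± 0.36 in control arrays. It was the most negative member in LPS vs control, at -0.32 (SE 0.17, limma adjusted p = 0.777), or -0.19 without control replicate 3. Its paralog Eif5a2 differed by -0.20, or -0.12 without LPS replicate 3. Both were thus on the opposite side from most members there, with overlapping arrays. Eif2c5 fits the symbol rule but is annotated as a long non-coding RNA in RefSeq and has no assigned role here, and its differences lay between -0.07 and -0.01.

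Elongation and initiation genes were then set side by side. In LPS vs control the median difference was 0.19 over 13 elongation and 0.10 over 46 initiation genes, in LPS/LPS vs control 0.02 and -0.05, and in LPS/LPS vs LPS -0.18 and -0.19. The means of the differences parted more in the last comparison, at -0.61 for elongation and -0.19 for initiation genes, with Eef1a1 and Eef2 far from the rest. At an unadjusted p under 0.05 there were 5 of 13 elongation genes (38.5%) and 8 of 46 initiation genes (17.4%), all lower, beside 4.49% of all genes. With LPS replicate 3 left out, the medians there were -0.23 for elongation and -0.12 for initiation genes, and the means -0.54 and -0.12.

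Restricting both sets to core factors, without binding proteins, the eEF2 kinase, methyltransferases and the like, left 6 elongation genes and 42 initiation genes. The 42 were parted by name and still held Eif2c5, Eif5a, Eif5a2 and Eif4a3. All 6 core elongation genes were lower in LPS/LPS than in LPS (median -0.77, against -0.19 for core initiation genes). All 6 were higher in LPS than in control (median 0.57, against 0.10). Without LPS replicate 3, 5 of the 6 were lower in LPS/LPS than in LPS, all but Eef1a2 (median -0.55, against -0.12), and all 6 were higher in LPS than in control (median 0.37, against 0.04). Within narrow arrays, with a single LPS array, Eef1a1 (-0.13), Eef1a2 (-0.06) and Eef1g (-0.07) were lower in LPS than in control. There Eef1g was also higher in LPS/LPS than in LPS (0.05). In LPS/LPS vs control the medians were -0.06 for each set. These are descriptions of small sets of genes read on the same arrays, not replicates, and no test was made of them.

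The same contrast can be read array by array, as the mean of the 13 elongation genes minus the mean of the 46 initiation genes. Levels of different probe sets are not comparable as such, but the gap can be compared between arrays. It ran from 0.08 to 0.37 in LPS/LPS arrays (mean 0.26 ± 0.12), from 0.50 to 0.78 in LPS arrays (0.68 ± 0.12) and from 0.41 to 0.67 in control arrays (0.51 ± 0.12). LPS/LPS arrays did not overlap either of the other groups.

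That separation rested on the 2 brightest elongation genes. Without Eef1a1 and Eef2, a setting chosen after seeing the data, the gap ran from -0.06 to 0.14 in LPS/LPS, from -0.04 to 0.20 in LPS and from -0.12 to 0.16 in control arrays, and all groups overlapped.

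**Figure D4:**
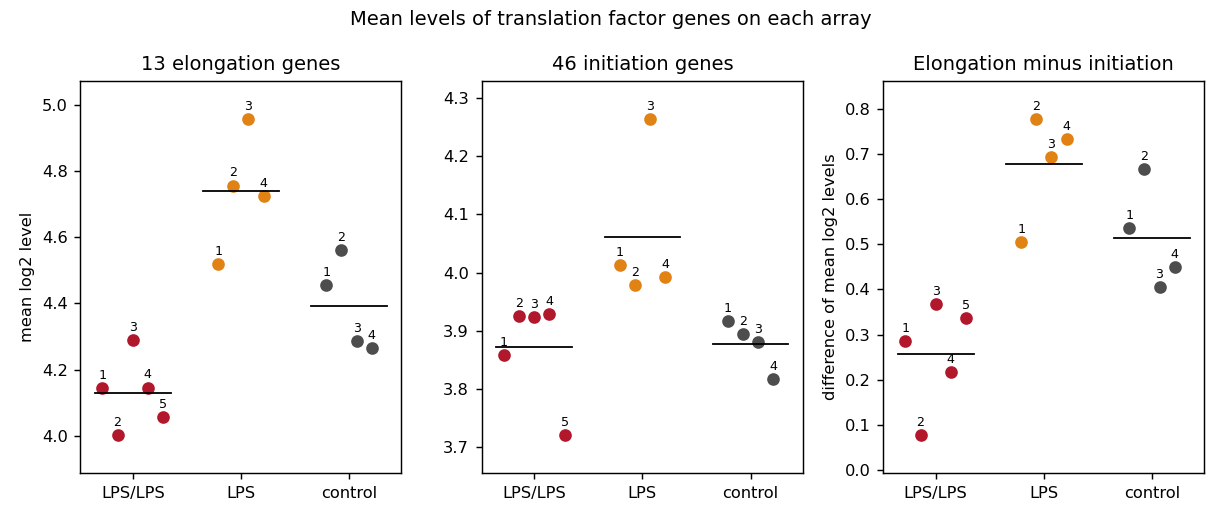
Mean log2 level of the 13 elongation members, of the 46 initiation members, and the first minus the second, for each array (points numbered by replicate, lines at the group means) in the LPS/LPS, LPS and control groups. The elongation minus initiation gap is 0.08 to 0.37 in LPS/LPS, below all LPS (0.50 to 0.78) and all control arrays (0.41 to 0.67).

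LPS replicate 3 held the highest value of all 13 arrays for 18 of the 59 members (30.5%), beside 8.9% of all genes. Of these 18, 6 were eIF3 subunits. In 4 members it exceeded every other array by more than 1 on the log2 scale, namely Eif3e, Eif3l, Eef1b2 and Eif4g2, of which the eIF3 pair were chosen after their values were seen. It read 3.53 for Eif3e and 4.28 for Eif3l, where the next highest arrays read 1.99 and 2.85. This is the array with the raised markers of other nephron segments. Its means of S1 and S2 markers (5.67) and of endothelial markers (4.25) were also the highest of all 13 arrays, and that of podocyte markers (4.09) was the lowest. The part of any of these markers in these values was not tested.

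Genes that control or assist these factors were read from 5 lists, and 0 of their measured genes passed limma's adjusted threshold in any comparison. In the integrated stress response list (12 of 12 measured), 4 genes were higher and 1 lower at an unadjusted p under 0.05 in LPS vs control (3.49% and 2.95% of all genes). In LPS/LPS vs LPS 0 were higher and 3 lower (4.13% and 4.49% of all genes). Atf4, the transcription factor that this response induces, averaged 4.31 ± 0.57 in LPS/LPS, 5.65 ± 0.50 in LPS and 4.48 ± 1.25 in control arrays. LPS/LPS differed from LPS by -1.34 (SE 0.47, limma adjusted p = 0.449). Impact, an inhibitor of the kinase Gcn2, differed by -0.76 (SE 0.26, limma adjusted p = 0.439) in LPS/LPS vs LPS and by 0.66 in LPS vs control, or by -0.47 and 0.38 without LPS replicate 3. Gcn1, the ribosome-bound activator of Gcn2, differed by -0.63 in LPS/LPS vs control and Nck1, an adaptor that promotes eIF2 dephosphorylation, by 0.42.

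Of the mTOR and MAP kinase list (13 of 14 measured), 2 genes were higher in LPS vs control (3.49% of all genes) and 2 lower in LPS/LPS vs LPS (4.49% of all genes) at an unadjusted p under 0.05, Mtor and Larp1 in each case. Mtor, the kinase, averaged 4.53 ± 0.13 in LPS/LPS, 5.25 ± 0.47 in LPS and 4.42 ± 0.27 in control arrays. Its differences were -0.73 in LPS/LPS vs LPS (SE 0.20, limma adjusted p = 0.294) and 0.83 in LPS vs control (SE 0.21, limma adjusted p = 0.411). Larp1, which binds the mTOR-dependent mRNAs that include elongation factors, differed by -0.61 (limma adjusted p = 0.289) and 0.40. Rps6, a ribosomal protein and mTOR pathway target, differed by -0.99 in LPS/LPS vs control (SE 0.56, limma adjusted p = 0.987).

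In the remaining lists the medians of LPS/LPS vs LPS were -0.23 for cap and poly(A) partners and 0.04 for mitochondrial factors. For other initiation, termination and recycling factors the median was -0.08. Below 0 were 9 of 10, 4 of 10 and 12 of 17 differences in that order, while 59.3% of all genes were above 0. Of 17 other initiation, termination and recycling factors, Sbds, which releases eIF6 from the large subunit, differed by -0.54 in LPS/LPS vs LPS (SE 0.15, limma adjusted p = 0.294) and by 0.52 in LPS vs control. Gspt1, the release factor eRF3a, differed by -0.56 and 0.50 in the same comparisons, or by -0.38 and 0.31 without LPS replicate 3. Of 10 cap and poly(A) partners, Paip2, an inhibitor of poly(A)-binding protein, differed by -0.51 in LPS/LPS vs LPS and by -0.53 in LPS/LPS vs control, with no overlap in either. Of 10 mitochondrial translation factors, Gfm2, a ribosome recycling factor, differed by -0.40 in LPS/LPS vs LPS (SE 0.13, limma adjusted p = 0.429), and the list's median there was 0.04, against -0.18 for the 59 members.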

How the data were processed

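RNA of S1 segments was extracted with the PicoPure kit and labelled by the Affymetrix WT Pico method, per the labels' protocols. The authors deposited log2 values for 41345 probe sets on 13 arrays, made with RMA and Partek 6.6 per the submitters' processing notes. The RMA background step and array normalization, the annotation and how segments were isolated are unknown here (not given in the sources used). No scanner files were used, so there are no detection calls.

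Gene names came from the platform annotation, in which 23521 probe sets carried 1 symbol, 1814 several and 16010 none. Only those with 1 symbol were tested. Entrez identifiers of 23328 matched RefSeq (GRCm38.p6), with 0 symbols changed. For 1082 genes with more than 1 probe set the one with the highest mean was used, and 5 further member probe sets were set aside, leaving 22180 genes. All arrays entered 1 fit with 3 group means (limma 3.58.1 lmFit and eBayes, R 4.3.3). The Benjamini-Hochberg adjustment ran over all genes, with a threshold of 0.05. On simulated LPS vs control data with 22180 genes, 72%, 96%, 98% and 100% of genes changed by a log2 of 1, 2, 3 and 4 were recovered, with 6 false calls. These shares check the fit and do not measure what could be detected for the members. In the data, Eif6 at 1.18 (SE 0.29) in LPS vs control was not called. Neither was Eef1a1 at -2.74 (SE 0.57) in LPS/LPS vs LPS.

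Members and lists were chosen with earlier results of these data known, as were the background level and the split by array spread. Named per comparison were the 6 most positive, 6 most negative and 6 brightest members, those with no overlap between groups, Eef1a1, Eef2, Eef2k, Eif4e, Eif4ebp1, Eif5a and Eif6, and the 2 genes of lowest p of each pathway list. Other members named were chosen after their values were seen. Alternatives were another normalization, moderation, array weights, blocks for replicate number and array spread, other probe set rules, a filter on dim genes, other classifications, fits of 2 groups, and leaving out each array.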

Additional observations from a re-analysis of the deposited data

Results flagged for a closer look

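Among the 84 groups of 4 or 5 arrays tested for single values far from the rest, 4 (4.76%) held one, and chance gives about 1 in 20. Eif2a read 5.24 in control replicate 1, where the nearest control array read 3.83. Eif3f read 2.94 in control replicate 1, with the nearest control array at 4.14. Eif4h read 4.70 in the same array, with the nearest at 5.00. Eif4e1b read 1.80 in LPS replicate 4, with the nearest LPS array at 2.78.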

How the results depend on the processing

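With 4 or 5 arrays a group and dim probe sets, small differences could not be resolved, and no member passed the threshold in the reported fit. Of 58 named differences, 46 kept their direction under every alternative fit, Eef1a1, Eef2, Eif4b and Eif6 among them. The comparison within wide and narrow arrays is not part of that count, and some of the 46 turned there. In narrow arrays Eef1a1 was -0.13 in LPS vs control. Eif4h was 0.56 in LPS/LPS vs LPS and -0.58 in LPS vs control. Counts of all genes called moved most, and the cause was not tested. In LPS vs control (0 as reported) the count was 5 with quantile normalization, 7 with trended and robust moderation, 30 with array weights, 3 with the replicate block, 3 for genes above background only, and 0 to 24 on leaving out single arrays. In LPS/LPS vs control (2) it was 4 with quantile normalization, 1 with arrays centred, 0 with only both groups in the fit, 0 with the replicate block, 4 with the spread class as a block, 0 over all probe sets, and 0 to 3 without single arrays. In LPS/LPS vs LPS (14) it was 9 with quantile normalization, 41 with array weights, 2 with only both groups, 4 with the replicate block, 7 over all probe sets, and 5 to 96 without single arrays, the highest without LPS replicate 1. Members called there were 1 with array weights and 0 to 1 without single arrays, Eif4b in each case. The member median was 0.46 in LPS vs control and, in LPS/LPS vs LPS, -0.85 for genes above background, and 0.074 to 0.22 and -0.23 to -0.16 without single arrays. In LPS/LPS vs control it was -0.13 for genes above background and -0.07 to 0.02 without single arrays. Eif6 passed that background filter only through its LPS arrays, so these medians support nothing. The initiation minus elongation median was -0.47 in LPS vs control with core factors only (-0.09 as reported), 0.50 in LPS/LPS vs control above background (-0.07), and 0.47 above background and 0.58 with core factors in LPS/LPS vs LPS (-0.01). Directions turned for small differences. Eif4a1 in LPS/LPS vs LPS was 0.13 with quantile normalization and 0.13 with the spread block, and in LPS vs control 0.057 with probe sets averaged. With arrays centred, Eef1g and Eif4e in LPS/LPS vs control were -0.0093 and -0.013, and Eif4ebp1 and Eif5a in LPS/LPS vs LPS were -0.010 and -0.0019. Array weights gave 0.051 for Eif4ebp2 and -0.0054 for Eif4e in LPS/LPS vs control, and the replicate block gave 0.14 and -0.047, with -0.0025 for Eef1g. The spread block gave -0.045 for Eif4ebp1 and -0.075 for Eif5a in LPS/LPS vs LPS. Without single arrays, LPS vs control ran from -0.45 to 0.11 for Eif2a, -0.39 to 0.014 for Eif2b1, -0.65 to 0.30 for Eif4a1 and -0.057 to 0.19 for Eif4ebp1. LPS/LPS vs control ran from -0.74 to 0.032 for Eif4a1, -0.15 to 0.14 for Eif4ebp2, -0.047 to 0.11 for Eif4e, -0.033 to 0.22 for Eif4ebp1 and -0.029 to 0.097 for Eef1g. LPS/LPS vs LPS ran from -0.68 to 0.27 for Eif4a1, -0.0074 to 0.054 for Eif4ebp1 and -0.047 to 0.084 for Eif5a. Replicate numbers are shared between groups, and 4 pairs a comparison are too few to settle whether they pair the arrays. Same-numbered deviations correlated at -0.27 to 0.15 in LPS vs control and at -0.15 to 0.22 in LPS/LPS vs control. In LPS/LPS vs LPS they correlated at -0.35 to 0.08. The best match was the own number in 0, 2 and 0 of 4 pairs, in the order of these 3 comparisons. With the replicate block, members at an unadjusted p under 0.05 numbered 8, 1 and 10 in these comparisons.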
